A study of Mus musculus with 18 samples.

Results

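The citric acid cycle oxidises acetyl groups in the mitochondrial matrix and passes the electrons to the respiratory chain. In hepatocytes its intermediates also leave the mitochondrion, citrate as a source of carbon for fatty acid synthesis and malate on the way to glucose. Of its enzymes, 9 genes were followed here in mouse liver: Cs, Idh3a, Idh3b, Idh3g, Ogdh, Dlst, Suclg1, Fh1 and Mdh2. Members were all probe sets (groups of short probes that give 1 signal per transcript region) whose only gene symbol in the platform annotation was 1 of these 9, which gave 22 of the 45101 probe sets. Cs had 3 of them, Idh3a 4, Idh3b 3, Idh3g 2, Ogdh 2, Dlst 4, Suclg1 1, Fh1 1 and Mdh2 2. For each gene, the probe set with the highest mean over all arrays is called its lead.

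Male C57BL/6J mice (the strain is spelled C56BL/6J in some labels), 5 weeks old at the start, ate AIN93G diet alone (control), AIN93G with 0.05% quercetin or AIN93G with 1% quercetin for 20 weeks. Quercetin is a plant flavonol. Each diet was fed to 12 mice kept 3 to a cage, and liver RNA of 6 mice per diet was hybridised, 1 mouse per array, so that there were 18 arrays in all. The cage of each mouse is not used here, because the labels do not tie mice to cages, and mice of 1 cage may be alike.

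Signals are log2 of the deposited intensity plus 16, after each array was shifted to the same median. Before that shift, the median of the tested probe sets differed between arrays by up to 0.48 on the log2 scale. All 22 member probe sets lay above the limit for testing (a mean log2 of 4.69), as did 22888 probe sets of 12885 genes in all. Of 9 hepatocyte markers on the array, 9 passed that limit, and their summed intensity ran from 80660 to 108800 over the 18 mice with the diets overlapping. Of the markers of tissues that could be carried along, 0 of 4 adipocyte, 2 of 8 skeletal muscle and 5 of 8 exocrine pancreas markers passed it. The summed intensity of all 8 pancreas markers ran from 368 to 1009 in controls. It ran from 351 to 574 on 0.05% and from 319 to 405 on 1%. That sum mainly follows Cela1, a pancreatic elastase, with a control mean of 8.86, where the next, Cela3b, had 5.67. For 1% against control Cela1 had a log2 change of -0.59 (unadjusted p = 0.0112, limma adjusted p = 0.523). Of the 5 tested, 4 were lower and 1 higher (Cela2a, 0.04). Below the limit, Cpa1 (0.04) and Ctrb1 (0.06) were higher and Cpb1 (-0.03) was lower. The part of such tissue in the member values was not tested. Mice differed in the acute phase response, the set of plasma proteins that liver makes in inflammation: 6 mice, 2 per diet (controls 4 and 5, mice 2 and 3 on 0.05%, and mice 5 and 6 on 1%), had a mean over 22 acute phase genes of 11.72 to 12.07, and the other 12 had 9.86 to 11.04. That list was drawn up after the values had been seen. In bulk liver RNA, fewer hepatocytes and less RNA per hepatocyte cannot be told apart.

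Promoter sequence is shown for the 5 members that made up the positive pairs past the threshold in the correlations across mice below (Idh3b, Idh3g, Dlst, Suclg1 and Mdh2), and for Fh1, which was in both negative pairs past it. RefSeq promoters of GRCm38.p6 were at hand for 8 of the 9 genes, with 6 start sites for Ogdh, and Idh3a was not matched. The motif CCGGAAG, the core recognised by ETS family factors such as GABP, was searched on both strands and is in capitals. Each sequence runs from 250 bases before the annotated start to 20 bases after it, 5′ to 3′ on the strand of the gene: Idh3b from chr2:130284432-130284701 (minus strand), Idh3g from chrX:73786878-73787147 (minus strand), Dlst from chr12:85110583-85110852 (plus strand), Suclg1 from chr6:73248255-73248524 (plus strand), Mdh2 from chr5:135778399-135778668 (plus strand) and Fh1 from chr1:175625616-175625885 (minus strand).
Idh3b: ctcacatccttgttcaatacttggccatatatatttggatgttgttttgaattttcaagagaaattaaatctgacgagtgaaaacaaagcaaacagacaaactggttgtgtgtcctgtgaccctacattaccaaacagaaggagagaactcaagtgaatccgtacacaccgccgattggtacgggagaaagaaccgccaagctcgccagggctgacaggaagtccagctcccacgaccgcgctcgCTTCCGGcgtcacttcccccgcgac
Idh3g: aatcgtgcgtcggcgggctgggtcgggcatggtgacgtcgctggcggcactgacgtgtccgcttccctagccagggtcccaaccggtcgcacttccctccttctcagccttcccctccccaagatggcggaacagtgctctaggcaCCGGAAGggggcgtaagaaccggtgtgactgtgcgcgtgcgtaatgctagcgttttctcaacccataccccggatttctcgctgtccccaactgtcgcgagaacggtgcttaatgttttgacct
Dlst: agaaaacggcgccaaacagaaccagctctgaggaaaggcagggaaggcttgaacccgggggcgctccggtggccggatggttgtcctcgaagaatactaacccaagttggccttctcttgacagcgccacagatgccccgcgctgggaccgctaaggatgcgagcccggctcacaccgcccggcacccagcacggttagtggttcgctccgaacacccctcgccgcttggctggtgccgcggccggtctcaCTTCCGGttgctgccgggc
Suclg1: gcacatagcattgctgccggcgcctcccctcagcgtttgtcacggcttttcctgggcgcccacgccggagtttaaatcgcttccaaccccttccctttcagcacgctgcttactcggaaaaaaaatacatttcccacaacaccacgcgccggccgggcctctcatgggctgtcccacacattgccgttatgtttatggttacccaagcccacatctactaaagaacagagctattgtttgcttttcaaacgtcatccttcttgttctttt
Mdh2: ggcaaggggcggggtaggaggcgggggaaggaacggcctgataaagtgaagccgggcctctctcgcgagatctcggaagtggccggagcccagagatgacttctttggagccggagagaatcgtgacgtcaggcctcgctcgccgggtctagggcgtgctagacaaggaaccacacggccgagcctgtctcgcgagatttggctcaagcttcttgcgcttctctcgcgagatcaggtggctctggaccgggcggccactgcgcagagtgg
Fh1: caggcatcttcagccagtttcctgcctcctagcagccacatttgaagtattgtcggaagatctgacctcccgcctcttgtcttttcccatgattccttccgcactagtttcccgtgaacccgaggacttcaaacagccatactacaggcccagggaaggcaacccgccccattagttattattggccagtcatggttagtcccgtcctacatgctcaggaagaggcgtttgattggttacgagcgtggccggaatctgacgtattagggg
With the first transcribed base as 1, the motif lay at -5 to 2 in Idh3b, at -104 to -98 in Idh3g and at 2 to 8 in Dlst. It was present in 3 of the 8 member genes and in 8.86% of the 32851 promoters of 300 bases in the table, and these letters are not in the windows of Suclg1, Mdh2 and Fh1. Searched in the same way, GCGCNTGCG of NRF1 was found in Idh3g and Ogdh (6.31% of all promoters), AAGGTCA of oestrogen-related receptors in Ogdh (4.72%), TGACGTCA of CREB in Ogdh and Mdh2 (1.79%), CACGTG, the E-box, in Ogdh (7.15%) and AAGATGGCG of YY1 in Idh3g (1.40%), and no match of 1 motif overlapped one of another in the same window. A match describes the letters of the window only.

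No citric acid cycle transcript differed between diets past the threshold set over the whole array. With limma and Benjamini-Hochberg adjustment over all tested probe sets, 0 of the 22 member probe sets passed an adjusted p under 0.05 in any of the 3 comparisons. The same rule called 0.00874% of all tested probe sets between 1% quercetin and control, 0.00437% between 0.05% and control, and 0% between 1% and 0.05%. At an unadjusted p under 0.05, 2 of 22 members were counted for 1% against control (the Idh3a lead, lower, and a dim Ogdh probe set, higher), against 7.69% of all probe sets. The other comparisons gave 0 of 22 for 0.05% against control, with 6.04% over all, and 1 of 22 (the same Ogdh probe set) for 1% against 0.05%, with 9.04% over all. The comparisons with control share the same 6 control mice.

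The median log2 change of the 9 leads was -0.08 for 1% against control (3 higher, 6 lower), where the median over all 12885 genes was -0.02. For 0.05% against control it was -0.02 (3 higher, 6 lower) beside -0.04 over all genes, and for 1% against 0.05% it was -0.01 (4 higher, 5 lower) beside 0.02. The standard deviation between mice of 1 diet, pooled over the diets, had a median of 0.16 over the 9 members. Over all genes it was 0.23, and over the 2609 genes at least as bright as the dimmest member it was 0.17.

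**Figure D1:**
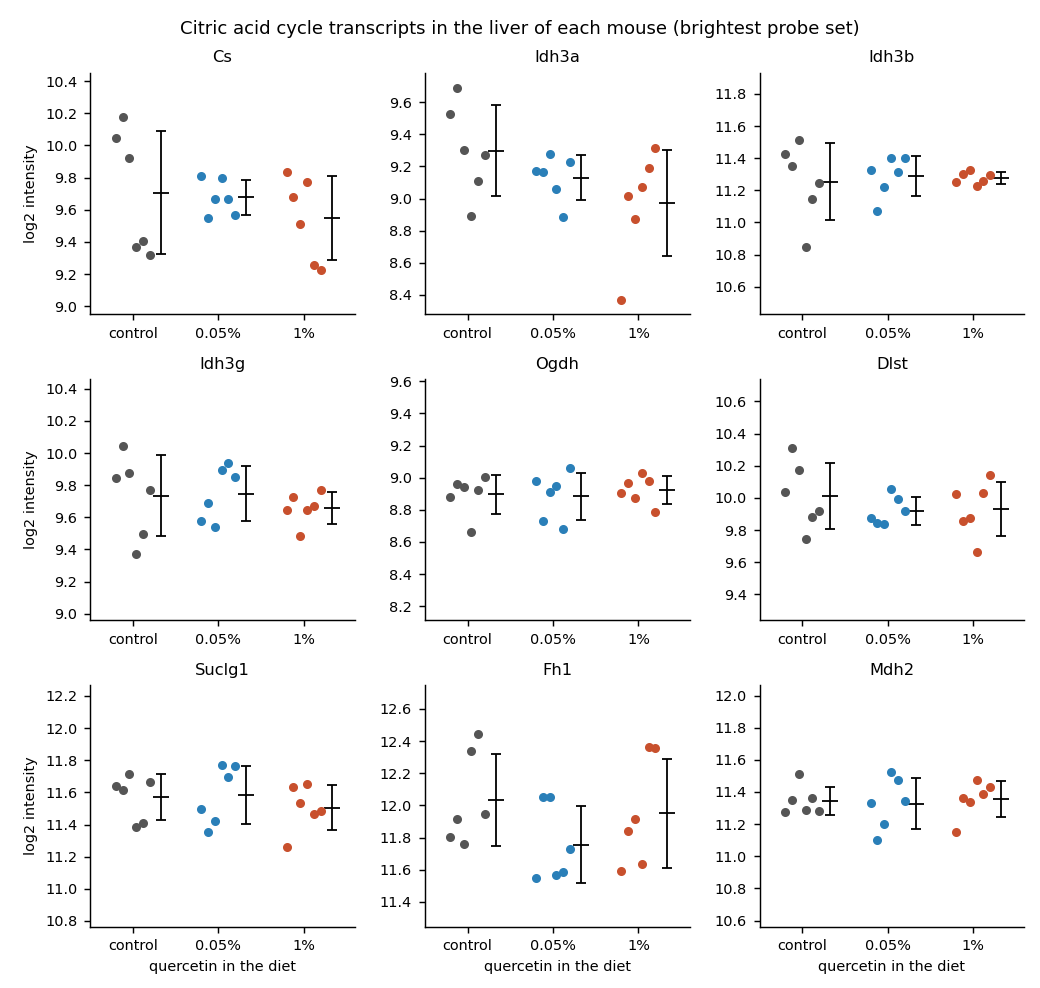
Log2 intensity (vertical axis) of the lead probe set of each of the 9 enzymes in every mouse, by quercetin content of the diet (horizontal axis), all panels spanning 1.5 log2 units. Points are single mice, in label order from left to right, and the bars to their right give mean ± SD over 6 mice. The diets overlap in each panel.

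Cs encodes citrate synthase, which joins acetyl-CoA to oxaloacetate and opens the cycle. Its lead (1450667_a_at) ran from 9.32 to 10.17 in controls (median 9.66), from 9.55 to 9.81 on 0.05% quercetin (median 9.67) and from 9.22 to 9.84 on 1% (median 9.60). The controls were split into 3 mice at 9.92 to 10.17 and 3 at 9.32 to 9.40, so that the control group alone spanned nearly the whole range. The change was -0.16 ± 0.15 (SE) for 1% against control (95% interval -0.48 to 0.16, limma adjusted p = 0.841) and -0.03 ± 0.15 for 0.05% against control. The other probe sets of Cs were lower on 1% than the control mean in 6 of 6 mice each. In 1422578_at the change was -0.38 ± 0.19 (interval -0.78 to 0.01, limma adjusted p = 0.666), and in 1422577_at it was -0.18 ± 0.10 (interval -0.39 to 0.03, limma adjusted p = 0.704). For 1422578_at the controls again lay in 3 high mice (9.95 to 10.13) and 3 low ones (8.99 to 9.24), and the 1% mice (8.95 to 9.47) lay in or near the range of the low controls. Across mice, after diet means were removed, this probe set correlated with the lead at r = 0.73 (adjusted permutation p = 0.00574 over 21 pairs of probe sets of 1 gene). For 1422577_at and the lead, r was -0.25 (adjusted permutation p = 0.439).

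Idh3a, Idh3b and Idh3g encode the subunits of the NAD-dependent isocitrate dehydrogenase, which makes 2-oxoglutarate: the alpha subunit is catalytic and the beta and gamma subunits are structural and regulatory. The Idh3a lead (1432016_a_at) ran from 8.89 to 9.69 in controls (median 9.29), from 8.89 to 9.28 on 0.05% (median 9.17) and from 8.37 to 9.31 on 1% (median 9.04). On 1% quercetin 5 of 6 mice lay below the control mean and 2 of them below all controls, and on 0.05% 6 of 6 lay below the control mean. The change for 1% against control was -0.33 ± 0.15 (interval -0.63 to -0.02), with an unadjusted p of 0.0389 and an adjusted p of 0.615 in limma. Without mouse 1 of the 1% diet, the lowest of all 18, it was -0.21. For 0.05% against control the Idh3a lead changed by -0.17 ± 0.15 (interval -0.48 to 0.14).

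The dimmer probe sets of Idh3a had changes for 1% against control of -0.33 (1422501_s_at), -0.22 (1422500_at) and -0.05 (1447701_x_at), none past the threshold. The first 2 of these varied across mice with the lead (r = 0.66 and 0.63, adjusted permutation p = 0.0185 and 0.0239) and for the last r was 0.08. Within the 1% diet, 1422501_s_at spread from 5.44 to 6.75, wider than the controls (5.93 to 6.62). Suffixes _s_at and _x_at are the manufacturer's marks for probe sets that may also match other transcripts.

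The Idh3b lead (1418886_s_at) ran from 10.85 to 11.51 in controls (median 11.30), from 11.07 to 11.40 on 0.05% (median 11.32) and from 11.23 to 11.32 on 1% (median 11.28). All 6 mice on 1% thus lay within the control range, and the change was 0.02 ± 0.10 (interval -0.19 to 0.23, limma adjusted p = 0.979). The spread differed more than the level, with an SD of 0.04 on 1%, 0.13 on 0.05% and 0.24 in controls, where 1 mouse (control 4) was lowest. No test of this difference in spread was run. In the second Idh3b probe set, 1418885_a_at, the SDs were 0.15 on 1% and 0.15 in controls. Across mice it correlated with the lead at r = 0.57 (adjusted permutation p = 0.0337), and at 0.41 without the 2 farthest mice. For the dim 1441271_at and the lead, r was 0.23 (adjusted permutation p = 0.439). The correlations between genes given below use the lead, which carries the mark _s_at.

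The Idh3g lead (1416789_at) ran from 9.37 to 10.04 in controls (median 9.81), from 9.54 to 9.94 on 0.05% (median 9.77) and from 9.49 to 9.77 on 1% (median 9.66). Its change for 1% against control was -0.08 ± 0.11 (interval -0.31 to 0.15, limma adjusted p = 0.908). The second probe set, 1416788_a_at, followed the lead across mice (r = 0.88, adjusted permutation p = 0.00021), and its change was 0.03 ± 0.11. Here too the 1% mice were close together, from 9.67 to 9.78, inside a control range of 9.32 to 9.94.

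**Figure D2:**
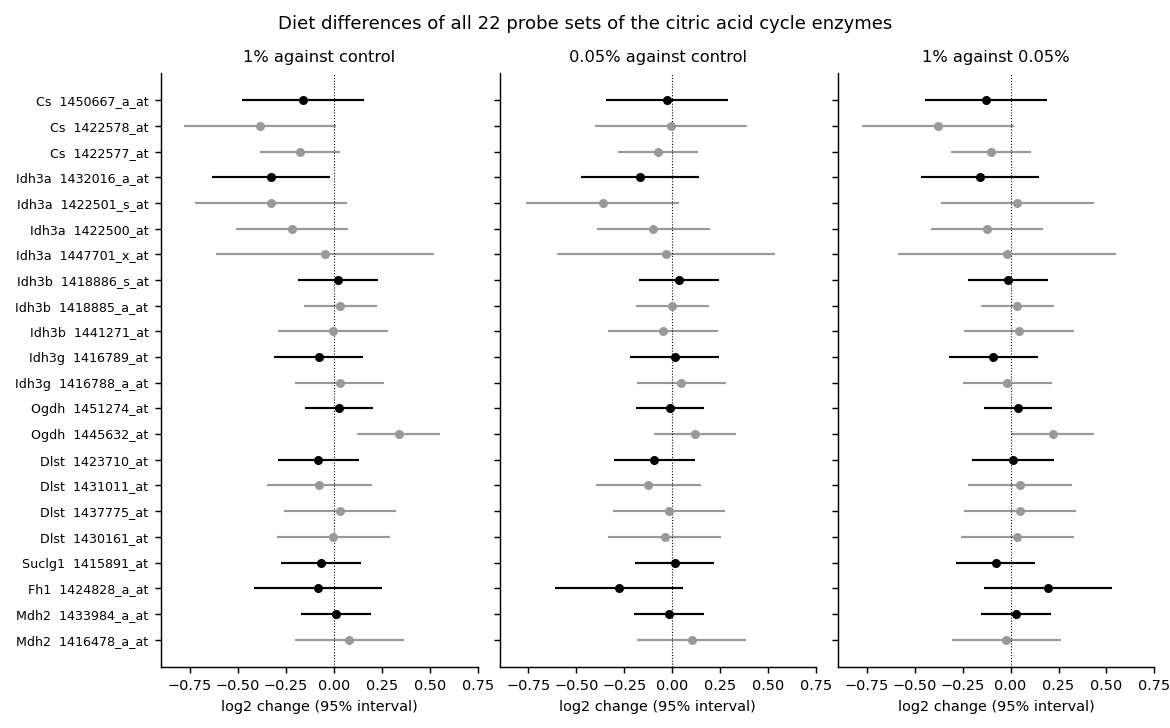
Log2 change (point) with its 95% interval (line) for each of the 22 probe sets in the 3 comparisons, from limma over all 18 arrays; black marks the lead of a gene and grey its other probe sets. The interval leaves out 0 for the Idh3a lead (-0.63 to -0.02) and Ogdh 1445632_at (0.12 to 0.55) in 1% against control, and for Ogdh 1445632_at (0.004 to 0.43) in 1% against 0.05%.

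Ogdh and Dlst encode the first 2 components of the 2-oxoglutarate dehydrogenase complex, the decarboxylase E1 and the succinyltransferase E2, which together make succinyl-CoA. The Ogdh lead (1451274_at) ran from 8.67 to 9.005 in controls (median 8.93), from 8.68 to 9.06 on 0.05% (median 8.93) and from 8.79 to 9.03 on 1% (median 8.93). The medians of the 3 diets were equal at this precision, and the change for 1% against control was 0.03 ± 0.09 (interval -0.15 to 0.21, limma adjusted p = 0.967). Between mice of a diet its pooled SD was 0.12.

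The dim second probe set of Ogdh, 1445632_at, gave other values. It ran from 5.88 to 6.25 in controls (median 6.19), from 5.88 to 6.46 on 0.05% (median 6.32) and from 6.30 to 6.67 on 1% (median 6.46). All 6 mice on 1% lay above all 6 controls, which held for 1 of the 22 member probe sets and for 0.201% of all tested probe sets. The change was 0.34 ± 0.10 (interval 0.12 to 0.55), with an unadjusted p of 0.00379 and an adjusted p of 0.464 in limma. The mean on 0.05% was 0.12 ± 0.10 above control, where 4 of 6 mice lay above all controls and 1 just below all of them, and 1% stood 0.22 ± 0.10 above 0.05% (unadjusted p = 0.0463, limma adjusted p = 0.542). Across mice the correlation of this probe set with the lead was -0.24 (adjusted permutation p = 0.439). Which part of the Ogdh transcript each probe set reads is not given in the sources used here.

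**Figure D3:**
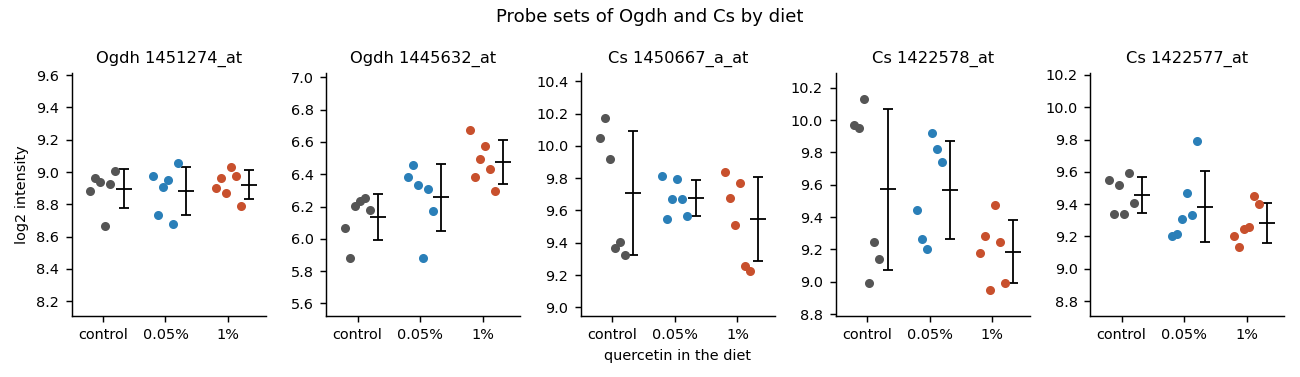
Log2 intensity (vertical axis) of the 2 probe sets of Ogdh and the 3 of Cs in each mouse, by quercetin content of the diet, all panels spanning 1.5 log2 units; bars give mean ± SD over 6 mice. In Ogdh 1445632_at the 1% mice (6.30 to 6.67) lie above the controls (5.88 to 6.25), while in the lead of Ogdh the diets overlap.

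The Dlst lead (1423710_at) ran from 9.74 to 10.31 in controls (median 9.98), from 9.84 to 10.06 on 0.05% (median 9.89) and from 9.66 to 10.14 on 1% (median 9.95). Its change was -0.08 ± 0.10 for 1% against control (interval -0.29 to 0.13, limma adjusted p = 0.894) and -0.09 ± 0.10 for 0.05%. The 3 dimmer Dlst probe sets had changes from -0.08 to 0.03 for 1% against control. Their correlations with the lead across mice were 0.05, -0.61 and -0.31, where -0.61 had an adjusted permutation p of 0.0241.

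Suclg1 encodes the alpha subunit of succinyl-CoA ligase, which makes succinate and a nucleoside triphosphate. Its only probe set (1415891_at) ran from 11.38 to 11.72 in controls (median 11.63), from 11.35 to 11.77 on 0.05% (median 11.60) and from 11.26 to 11.65 on 1% (median 11.51). The change for 1% against control was -0.07 ± 0.10 (interval -0.27 to 0.14, limma adjusted p = 0.914). For 0.05% against control it was 0.01 ± 0.10 (interval -0.20 to 0.22).

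Fh1 encodes fumarate hydratase, which turns fumarate into malate. Its only probe set (1424828_a_at) ran from 11.76 to 12.45 in controls (median 11.93), from 11.55 to 12.06 on 0.05% (median 11.66) and from 11.59 to 12.36 on 1% (median 11.88). On 0.05% quercetin 4 of 6 mice lay below all controls, while the other two lay above the control mean. The change was -0.28 ± 0.16 for 0.05% against control (interval -0.61 to 0.06, unadjusted p = 0.0968, limma adjusted p = 0.828), -0.08 ± 0.16 for 1% against control and 0.19 ± 0.16 for 1% against 0.05%. With the acute phase mean of each mouse as a covariate, the change for 0.05% against control was -0.17, and with the 3′ to 5′ signal ratio of the Gapdh control probe sets it was -0.14.

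Mdh2 encodes the mitochondrial malate dehydrogenase, which closes the cycle at oxaloacetate. Its lead (1433984_a_at) ran from 11.27 to 11.51 in controls (median 11.32), from 11.10 to 11.52 on 0.05% (median 11.34) and from 11.15 to 11.47 on 1% (median 11.37). The change for 1% against control was 0.01 ± 0.09 (interval -0.17 to 0.19, limma adjusted p = 0.986). The second probe set, 1416478_a_at, varied with the lead across mice (r = 0.82, adjusted permutation p = 0.00063) and changed by 0.08 ± 0.14.

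Around these members, 8 other cycle enzymes and subunits were tested by their leads, and 0 passed an adjusted p under 0.05 in limma in any comparison. For 1% against control, 2 of the 8 had an unadjusted p under 0.05, both lower, where 5.13% of all genes did so in that direction. Both are subunits of succinate dehydrogenase, which also serves as complex II of the respiratory chain. Sdha had a log2 change of -0.18 ± 0.08 (unadjusted p = 0.0308, limma adjusted p = 0.597) and Sdhb had a change of -0.24 ± 0.12 (unadjusted p = 0.0483, adjusted p = 0.644), each with 6 of 6 mice on 1% below the control mean. The membrane subunits Sdhc (-0.02) and Sdhd (-0.10) and the enzymes Dld (-0.11), Sucla2 (-0.04) and Suclg2 (-0.03) had smaller values. Idh2, the NADP-dependent isocitrate dehydrogenase of mitochondria, had a change of 0.23 ± 0.13 with 6 of 6 mice above the control mean (limma adjusted p = 0.700). For 0.05% against control these 8 ranged from -0.08 to 0.19.

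Genes that feed the cycle with pyruvate (12 tested) or control mitochondrial genes (11 tested) also gave 0 genes past the adjusted threshold in limma in any of the 3 comparisons. At an unadjusted p under 0.05, they gave 0 of 12 and 1 of 11 between 1% and control, none between 0.05% and control, and 0 of 12 and 2 of 11 between 1% and 0.05%. Over all 12885 genes, the same rule counted 8.44%, 5.56% and 8.58% in that order. Pdk4, the kinase that switches off pyruvate dehydrogenase, had a change of 0.68 ± 0.38 for 1% against control. Mpc1 (0.07), a subunit of the pyruvate carrier, Pdha1 (-0.02), a subunit of pyruvate dehydrogenase, and Pcx (-0.12), pyruvate carboxylase, had smaller changes. The regulator counted for 1% against control was Pprc1 (0.56 ± 0.24), and those counted for 1% against 0.05% were Pprc1 (0.74) and Ppargc1b (-0.63), members of the family of coactivators that includes Ppargc1a; they are named after their values were seen. Ppargc1a itself had -0.35 ± 0.32 for 1% against control, Esrra -0.28 ± 0.16, Nrf1 0.18 ± 0.11 and Tfam 0.06 ± 0.10.

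Of 15 tested genes that exchange cycle intermediates with the cytosol, 0 passed the adjusted threshold in limma, while 13 of 15 were lower on 1% quercetin than in controls, against 55.3% of all genes. For 0.05% against control 11 of 15 were lower, beside 62.1% of all genes, and for 1% against 0.05% 13 of 15, beside 46% of all genes. Of the 9 tested hepatocyte markers, 8 were also lower on 1% than in controls and 9 on 0.05%, each with a median of -0.11. Between 1% and 0.05%, 6 of these markers were higher and 3 lower, with a median of 0.01. The part of hepatocyte content in these counts was not tested. Of the 15 exchange genes, 4 were lower and 1 higher at an unadjusted limma p under 0.05 for 1% against control. Over all genes these shares were 5.13% and 3.31%. The other comparisons gave 0 of 15, beside 5.56% of all genes for 0.05% against control and 8.58% for 1% against 0.05%. Acly, which splits exported citrate for fatty acid synthesis, had a change of -0.72 ± 0.31 (interval -1.36 to -0.07, unadjusted p = 0.0316, adjusted p = 0.602 in limma), with all 6 mice below the control mean. Mdh1, the cytosolic malate dehydrogenase, had -0.38 ± 0.17 (unadjusted p = 0.0361, limma adjusted p = 0.611), and Idh1, the cytosolic NADP-dependent isocitrate dehydrogenase, had -0.13 ± 0.11. The other genes counted, named after their values were seen, were the aspartate aminotransferases Got1 (-0.63 ± 0.26) and Got2 (-0.16 ± 0.08) and, higher, Pck2 (0.25 ± 0.12), the mitochondrial phosphoenolpyruvate carboxykinase. Mpc2 had no lead of its own among the tested probe sets.

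Across mice, 5 of the 9 members (Idh3b, Idh3g, Dlst, Suclg1 and Mdh2) had a positive correlation with at least 1 other that passed the threshold, and Cs, Idh3a and Ogdh had none. After the diet means were removed, 29 of the 36 pairs of leads correlated positively over the 18 mice and 7 negatively, all 7 with Fh1 as a partner. The median r was 0.31, and 0.20 after quantile normalization. On values as deposited 3 of the 36 had another sign, and after quantile normalization 5 had, none of them among the 8 pairs that passed. An adjusted permutation p under 0.05 over the 36 pairs was reached by 8 of them, 6 positive and 2 negative. Permutations ran over all 18 mice and not within diets, so these p-values are somewhat too small and pairs near the threshold are uncertain. The positive pairs were Idh3g and Dlst (r = 0.75, rho = 0.76, adjusted permutation p = 0.00522), Suclg1 and Mdh2 (r = 0.74, rho = 0.67, adjusted permutation p = 0.00522), Idh3b with Idh3g (r = 0.71), with Suclg1 (r = 0.69) and with Dlst (r = 0.64), and Idh3g with Suclg1 (r = 0.66). For these last 4, rho lay between 0.64 and 0.69 and the adjusted permutation p between 0.00522 and 0.0203. In controls these 4 had r between 0.81 and 0.88, over 6 mice per diet. On 0.05% quercetin Idh3b had 0.49 with Idh3g, 0.89 with Suclg1 and 0.67 with Dlst, and Idh3g had 0.83 with Suclg1. On 1% these values were -0.22, 0.14, 0.26 and 0.02 in that order. For Idh3g and Dlst r was 0.93 in controls, 0.84 on 0.05% and 0.39 on 1%. Suclg1 and Mdh2 had 0.34, 0.88 and 0.81 in that order. Without the 2 mice farthest from the median of the first gene, the 6 positive correlations were 0.52 to 0.66. Within the 12 mice of lower acute phase mean, given as a description, Suclg1 and Mdh2 had r = 0.74 and Idh3g and Dlst r = 0.52. The others were smaller there, with 0.11 for Idh3b and Idh3g, 0.26 for Idh3b and Suclg1, 0.37 for Idh3b and Dlst and 0.36 for Idh3g and Suclg1.

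Of the 8 correlations of Fh1 with other members, 7 were below 0 and 2 of these passed the threshold, the weaker of them only narrowly. Its correlation was -0.76 with Cs (rho = -0.80, adjusted permutation p = 0.00522; -0.91 without the 2 farthest mice) and -0.57 with Idh3b (rho = -0.46, adjusted permutation p = 0.0426 for r and 0.190 for rho; -0.49 without the 2 farthest mice). Within the 12 mice of lower acute phase mean the values were -0.54 and -0.05, and Fh1 had positive values there with Idh3a (0.39), Suclg1 (0.37) and Ogdh (0.12). The Cs lead and Fh1 had negative correlations within each diet as well, -0.70 in controls, -0.66 on 0.05% and -0.99 on 1%, over 6 mice each. For Idh3b and Fh1 these were -0.85, -0.80 and 0.29. On 1% quercetin Fh1 also had positive values with Idh3a (0.73), Dlst (0.65), Mdh2 (0.43) and Idh3g (0.34), so that 5 of its 8 correlations were above 0 on that diet. All these values use leads, and the Cs probe set 1422577_at had r = -0.25 with the Cs lead. In mice 5 and 6 on 1%, the highest there for Fh1, the Cs lead was lowest (9.26 and 9.22). In the same mice 1422577_at was highest of that diet (9.45 and 9.40).

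**Figure D4:**
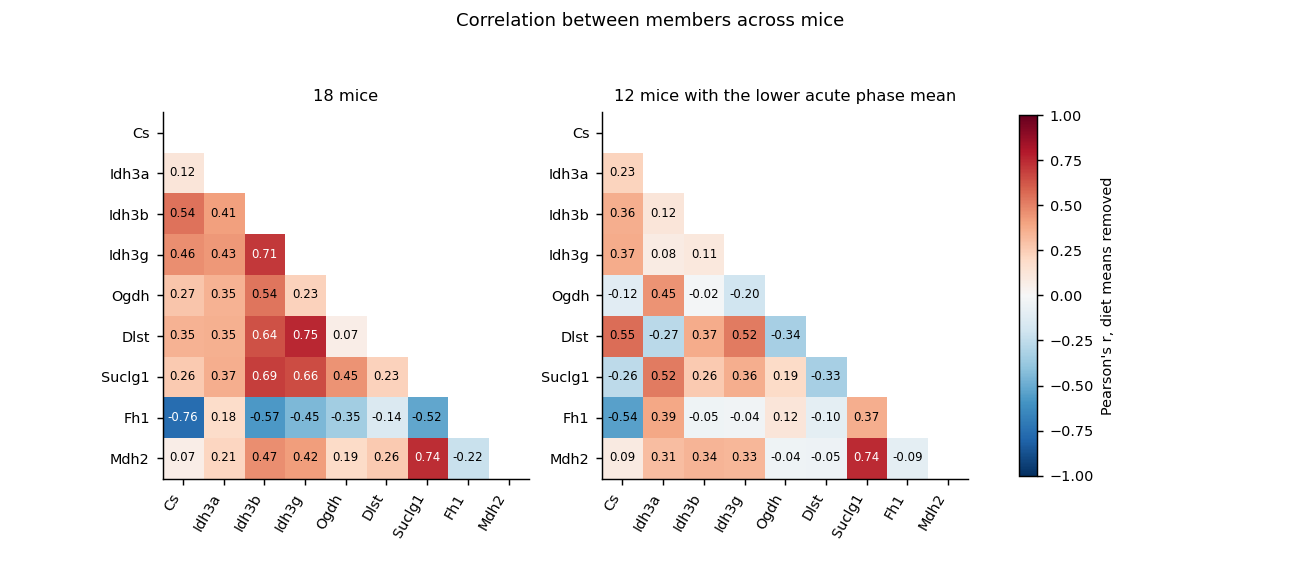
Pearson correlation (colour and number) between the leads of the 9 members after diet means were removed, over all 18 mice (left) and over the 12 mice of lower acute phase mean (right). The pair Suclg1 and Mdh2 has 0.74 in both panels, while Idh3b and Idh3g have 0.71 on the left and 0.11 on the right.

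Measured against the mean of the other 8 members, Idh3b (r = 0.82) and Idh3g (r = 0.75) varied most closely with the set. Suclg1 followed with 0.67, Dlst with 0.56, Idh3a with 0.54, Mdh2 with 0.47, Ogdh with 0.38 and Cs with 0.29, and Fh1 had -0.52. Control 4 was the mouse with the most low members, among the lowest 3 mice for 5 of the 9 leads. Controls 2 and 3 were among the highest 3 mice for 4 and 5 of the 9 leads.

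The members ranked differently against the acute phase genes. The 6 mice of high acute phase mean had an Fh1 signal of 12.05 to 12.45, and the other 12 had 11.55 to 11.95, so the 6 highest mice for Fh1 were those 6. The same 6 mice were the highest for 0.753% of all 12885 tested genes (97 genes, Fh1 included) and the lowest for 0.287%. Lcn2, a secreted iron-scavenging protein of the acute phase, read 11.83 to 12.43 in these 6 mice and 5.66 to 9.37 in the rest. Of the 6 lowest mice for Suclg1, 5 were among them, and 4 of the 6 lowest for Cs and 4 of the 6 lowest for Idh3b. For Idh3g, Ogdh, Dlst and Mdh2 it was 3 of the 6 lowest and for Idh3a 1, while Idh3a, Dlst and Mdh2 each had 2 of these mice, and Ogdh 1, among their 6 highest. Because the mice form 2 separate sets, no correlation over all 18 is given. Within the 12 mice of lower acute phase mean, given as a description, the correlation with that mean was -0.85 for Idh3b and -0.55 for Cs. Mdh2 had -0.49 there, Idh3g -0.43, Suclg1 -0.38, Dlst -0.33 and Idh3a -0.25, while Ogdh (0.21) and Fh1 (0.19) had positive values. The summed intensity of the 8 neutrophil markers on the array ran from 115 to 1252 in controls. It ran from 80.2 to 213 on 0.05% and from 225 to 819 on 1%, so that this sum did not overlap between the diets with quercetin. For 1% against 0.05%, 0.473% of all genes were higher without overlap. In that comparison 4 of the 5 tested markers were higher, most of all S100a8 (1.65) and S100a9 (1.28), and Elane (-0.20) was lower. Of the 8, Camp, Ltf and Cxcr2 lay below the limit for testing, with changes of -0.13, -0.12 and 0.19. The part of these cells in the member values was not tested.

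**Figure D5:**
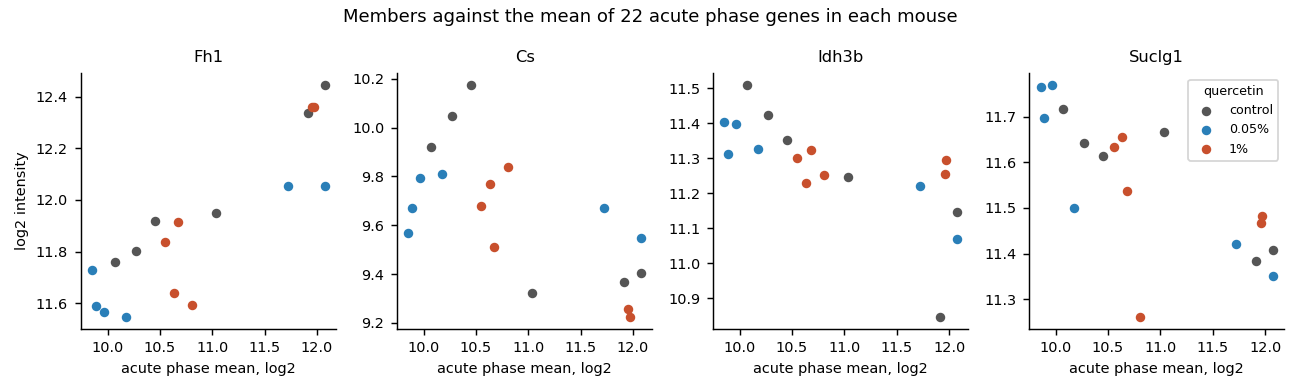
Log2 intensity (vertical axis) of Fh1, Cs, Idh3b and Suclg1 in each mouse against the mean log2 intensity of 22 acute phase genes (horizontal axis), coloured by diet. The 6 mice on the right (11.72 to 12.07, 2 per diet) have the highest Fh1 signals, 12.05 to 12.45.

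The Gapdh signal ratio, 1 of 2 such ratios examined, also moved with several members. The log2 ratio of 3′ to 5′ signal of the Gapdh control probe sets, commonly used to judge RNA integrity, ran from -0.32 to 0.07 over the arrays, with group means of -0.09 ± 0.12 (SD, n = 6) in controls, -0.19 ± 0.12 on 0.05% and -0.15 ± 0.08 on 1%. It correlated with the scaled mean of the 9 members at r = -0.75 over the 18 mice (rho = -0.76, permutation p = 0.00023, adjusted p = 0.00138 over 12 relations; -0.61 without the 2 farthest mice). Single members gave -0.86 for Idh3b (adjusted permutation p = 0.00012), -0.74 for Suclg1 (0.00252), -0.68 for Idh3g (0.00642) and -0.61 for Dlst (0.0181). Fh1 had 0.50 (adjusted permutation p = 0.0729). Within the 12 mice of lower acute phase mean the values were -0.36 for the member mean and -0.73 for Idh3b, and there the ratio and the acute phase mean themselves had r = 0.65. The same ratio for Actb had r = -0.16 with the member mean (adjusted permutation p = 0.523). The part of RNA quality in the correlations between members was not tested.

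By the rule that names the 10 genes whose pattern over the 18 mice was most like the scaled mean of the 9 members, the list held Tmem135 (r = 0.91), Slc10a1 (0.91), Slc25a11 (0.91), Rab14 (0.90), Trmt2b (0.90), Rnf14 (0.90), Ndufb10 (0.90), Mthfd1 (0.90), Ugt2a3 (0.89) and Naxe (0.89). Slc25a11 carries 2-oxoglutarate across the inner mitochondrial membrane, Ndufb10 is a subunit of complex I, and Slc10a1 takes up bile acids into hepatocytes. Over the 12876 genes outside the set the median r was 0.02, and 135 genes had an r over 0.8. Within the 12 mice of lower acute phase mean these 10 genes had r from 0.73 to 0.90. They were chosen on all 18 mice, these 12 included, so high values there follow in part from the choice. After quantile normalization their ranks lay between 4 and 132.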

How the data were processed

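Total liver RNA of 18 mice was amplified, biotin-labelled and hybridised to Affymetrix mouse arrays, per the labels' protocols. The deposited values are 1 linear intensity per probe set and array; how the authors computed and scaled them is not given in the sources used here. Of 45101 probe sets, 64 were controls, 34945 had 1 gene symbol in the platform annotation, 932 several and 9160 none. Those with 1 symbol and a mean above the 40th percentile of non-control probe sets (log2 4.69) were tested, 22888 in all. After adding 16, log2 values were shifted per array to 1 median over them and fitted with limma 3.58.1 (R 4.3.3; lmFit, eBayes) as 3 diet means over 18 arrays, 15 residual degrees of freedom, two-sided, with Benjamini-Hochberg adjustment. The median standard error of a log2 change was 0.13, and the number of arrays limits this precision. Correlations used 100000 permutations (NumPy 2.4.6, SciPy 1.17.1). Deviations from the diet means were permuted over all 18 mice and not within diets. The removal of the 3 diet means was not allowed for, so all permutation p-values are somewhat too small.

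The members, lists and tests were chosen with earlier results of these data known. Genes named are the members, the other cycle enzymes, preset neighbours of the cycle, genes of the pathway lists that passed, and the 10 most alike in pattern; Lcn2 and a few others were chosen after values were seen. Markers of 11 cell types were summed; those not given in the text had overlapping ranges between diets. Alternatives to the scaling, filter, value added, fit and arrays used stand in the closing section. The pipeline was tested on simulated data. For 1% against control, 0.05% against control and 1% against 0.05%, it recovered 54%, 42% and 38% of changes of 0.5 log2. Of changes of 1 log2 it recovered 90%, 96% and 94%, with not all signs right in the last. False calls were 13, 11 and 10 in that order. Changes as small as those of the members could thus be missed. Replicate numbers did not pair the mice: same-numbered mice of 2 diets had correlations of their deviations from -0.47 to 0.33.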

Additional observations from a re-analysis of the deposited data

Results flagged for a closer look

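Within each diet, every member probe set was examined for a mouse lying far from the other 5 by Dixon's ratio of gap to range, over 66 groups in all, of which chance flags about 1 in 20. All 3 values found were in controls. In the lead probe set of Ogdh (1451274_at), control 4 read 8.67, and the nearest control read 8.88. In the dim Dlst probe set 1431011_at, control 5 read 5.79 beside 6.30 for the nearest mouse. In the lead of Mdh2 (1433984_a_at), control 3 read 11.51 beside 11.36.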

How the results depend on the processing

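For the members, 0 probe sets were called in each of the 3 comparisons under all 32 alternatives of each, which included leaving out each array in turn; over the 9 leads, the smallest adjusted p in limma over these was 0.378 between 1% and control, 0.595 between 0.05% and control, and 0.607 between 1% and 0.05%. The sign of the change was kept throughout by 6 of 9 leads between 1% and control (Cs, Dlst, Fh1, Idh3a, Idh3g and Suclg1), by 3 between 0.05% and control (Dlst, Fh1 and Idh3a) and by 5 between 1% and 0.05% (Cs, Fh1, Idh3a, Idh3g and Suclg1). The change of Ogdh 1445632_at for 1% against control lay between 0.29 and 0.42, with a smallest adjusted p of 0.111. Depth is not defined for these arrays, and dim probe sets near the limit for testing are the least precise.

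The number of all probe sets called was 2 between 1% and control, 1 between 0.05% and control, and 0 between 1% and 0.05%. In that order it was 1, 0 and 2 on values as deposited; without the filter, it was 1 and 2 in the comparisons with control, and 1 and 0 with the filter at the 60th percentile, with 1 probe set per gene, and with only the 12 arrays compared. That last setting gave 18 for 1% against 0.05%. Averaging the probe sets of a gene gave 0 and 0 in the comparisons with control. With 1 added in place of 16, it was 0 for 0.05% against control and 1 for 1% against 0.05%. For 1% against 0.05% it was 2 with trended robust eBayes, 1 with array weights and 4 at an adjusted p under 0.10. Of the alternatives chosen after seeing the data, the acute phase mean as a covariate gave 13 for 1% against control, and the Gapdh ratio gave 22, 0 and 1. Leaving out 1 mouse gave 0 to 7 (7 without control 3), 0 to 1 and 0 to 2. The cause was not tested.

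With replicate number as a block, 0 probe sets were called for 0.05% against control, and 20 of the 36 member pairs passed in place of 8; the labels give the numbers no meaning, and they did not pair the mice. Of the 36 pairs, 27 passed on values as deposited, where arrays differ in overall brightness, and 5 after quantile normalization.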
